A study of Mus musculus with 36 samples.

Results

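The methionine cycle and its methyl acceptors were followed in mouse liver through 10 genes, Mat1a, Mat2a, Mat2b, Ahcy, Gnmt, Bhmt, Bhmt2, Pemt, Gamt and Chdh. The genes were chosen by name, and every probe set that the platform annotation or a current synonym assigned to one of them was taken. Of the 10 genes, 9 had a probe set, against 18193 gene symbols on the whole array. These genes had 10 probe sets, since Bhmt2 had 2, and all 10 passed the filter on dim signals. No probe set was named for Mat2a here, and it was not analysed.

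Livers of female mice aged 6 to 8 weeks, fasted for 4 to 5 hours, were hybridised to Affymetrix arrays, with 4 mice in each of 9 groups. The mutant groups were heterozygotes of Pax3Sp2H (Pax3, the splotch transcription factor), Apobtm1Unc (Apob, apolipoprotein B), Lrp6Cd (Cd-Het, the Wnt co-receptor mutated in crooked tail) and Vangl2Lp (Lp-Het, a planar polarity protein), and curly tail mice (Ct). The curly tail colony was closed and bred at random, and all its mice were taken by the submitters to be ct/ct. Their design text speaks of heterozygous test mice in all lines, so the sources differ on this group. The wild type groups were C57BL/6J (B6, control of both Pax3 and Apob), wild types of the Lrp6Cd line (Cd-WT), CBA/CaJ (CBA, control of Ct) and wild types of the Vangl2Lp line (Lp-WT). By the labels, dietary folic acid acts on the Pax3 and Cd-Het lines (responsive), while Apob, Ct and Lp-Het are resistant to it. No diet or folate treatment is given as a group. Strain and genotype cannot be told apart in Ct against CBA, and the background strains of the Pax3 and Apob lines are not given in the sources used here.

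Methionine adenosyltransferase makes S-adenosylmethionine, the methyl donor of the cell, from methionine and ATP. Each methyl transfer leaves S-adenosylhomocysteine, which is hydrolysed to homocysteine, and homocysteine is methylated back to methionine with a methyl group from folate or from betaine. The liver is the main site of this cycle. Betaine, made there from choline, gives its methyl group through an enzyme found mainly in liver. Glycine, phosphatidylethanolamine and guanidinoacetate are large consumers of hepatic S-adenosylmethionine.

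RNA quality set the limits of several results. The GAPDH 3' to 5' signal ratio was 1.72 on Ct replicate 3 and 52.5 on CBA replicate 4, against 0.729 to 0.956 on the other 34 arrays. The median correlation with the other arrays was 0.894 for Ct replicate 3 and 0.833 for CBA replicate 4, against at least 0.918 for the other 34. Results are therefore given with all 36 arrays and without these 2 arrays. Of the mutated genes, Apob itself was lower in Apob livers, and Pax3, Lrp6 and Vangl2 did not pass the test. For Apob the log2 difference was -1.82 ± 0.422 in a limma fit without the filter, and the adjusted p was 0.0297 in the limma fit with it. The probe set of Grhl3, the gene altered in curly tail, was below the filter. The hepatocyte markers Alb, Ttr, Apoa1, Tat and Cps1 had median signals from 14210 to 64110 and were at least 8753 on every array.

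Gnmt and Ahcy are shown by the stretch before their annotated start because every array of Ct and of Lp-Het livers was above every array of its control for both, although only Gnmt in Ct passed the test and that call was lost without the 2 arrays. Bhmt and Bhmt2 are shown because these neighbouring genes on chromosome 13 had different orders of signal among the wild type stocks, with no call for Bhmt. The stretches, from RefSeq on GRCm38.p6, run from 250 to 51 bases before the start given in the promoter table and lie on the minus strand, at chr17:46729216-46729415 (Gnmt), chr2:155074548-155074747 (Ahcy), chr13:93637809-93638008 (Bhmt) and chr13:93674353-93674552 (Bhmt2). For Gnmt that start lies 46 bases inside the outer end of the annotated gene, and for the other 3 it is that end. Each is written 5′ to 3′ with motif matches in capitals.
Gnmt: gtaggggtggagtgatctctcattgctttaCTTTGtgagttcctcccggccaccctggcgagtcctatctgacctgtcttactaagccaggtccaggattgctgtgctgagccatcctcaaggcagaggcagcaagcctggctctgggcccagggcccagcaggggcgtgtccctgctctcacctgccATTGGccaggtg
Ahcy: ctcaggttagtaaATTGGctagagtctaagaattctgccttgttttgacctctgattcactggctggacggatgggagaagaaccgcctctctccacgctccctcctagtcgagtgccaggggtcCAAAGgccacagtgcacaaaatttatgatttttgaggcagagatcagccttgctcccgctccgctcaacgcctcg
Bhmt: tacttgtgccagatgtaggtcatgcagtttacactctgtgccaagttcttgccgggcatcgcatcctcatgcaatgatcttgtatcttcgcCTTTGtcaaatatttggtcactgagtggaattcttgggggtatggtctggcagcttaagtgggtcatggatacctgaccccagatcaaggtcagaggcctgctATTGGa
Bhmt2: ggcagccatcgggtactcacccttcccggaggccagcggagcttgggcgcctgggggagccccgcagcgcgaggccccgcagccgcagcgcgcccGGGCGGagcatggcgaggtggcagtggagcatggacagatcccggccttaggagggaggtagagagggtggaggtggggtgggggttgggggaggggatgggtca
The motifs searched on both strands were CCAAT (bound by NF-Y), GGGCGG (bound by Sp1 family factors), CACGTG (an E-box) and CAAAG (part of the sites of HNF4 and of TCF factors), none of which overlap in these stretches. Gnmt, Ahcy and Bhmt each held 1 CCAAT and 1 CAAAG match, and Bhmt2 held 1 GGGCGG match and none of the others. Over the same 200 bases of 32851 promoters, 28.4% held CCAAT, 42.3% CAAAG, 24.6% GGGCGG and 4.34% CACGTG. The GC content was 60.5% for Gnmt, 52.5% for Ahcy, 48.5% for Bhmt and 73.0% for Bhmt2, against a median of 51.5% over the promoters. A match describes the letters and not a bound site.

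**Figure D1:**
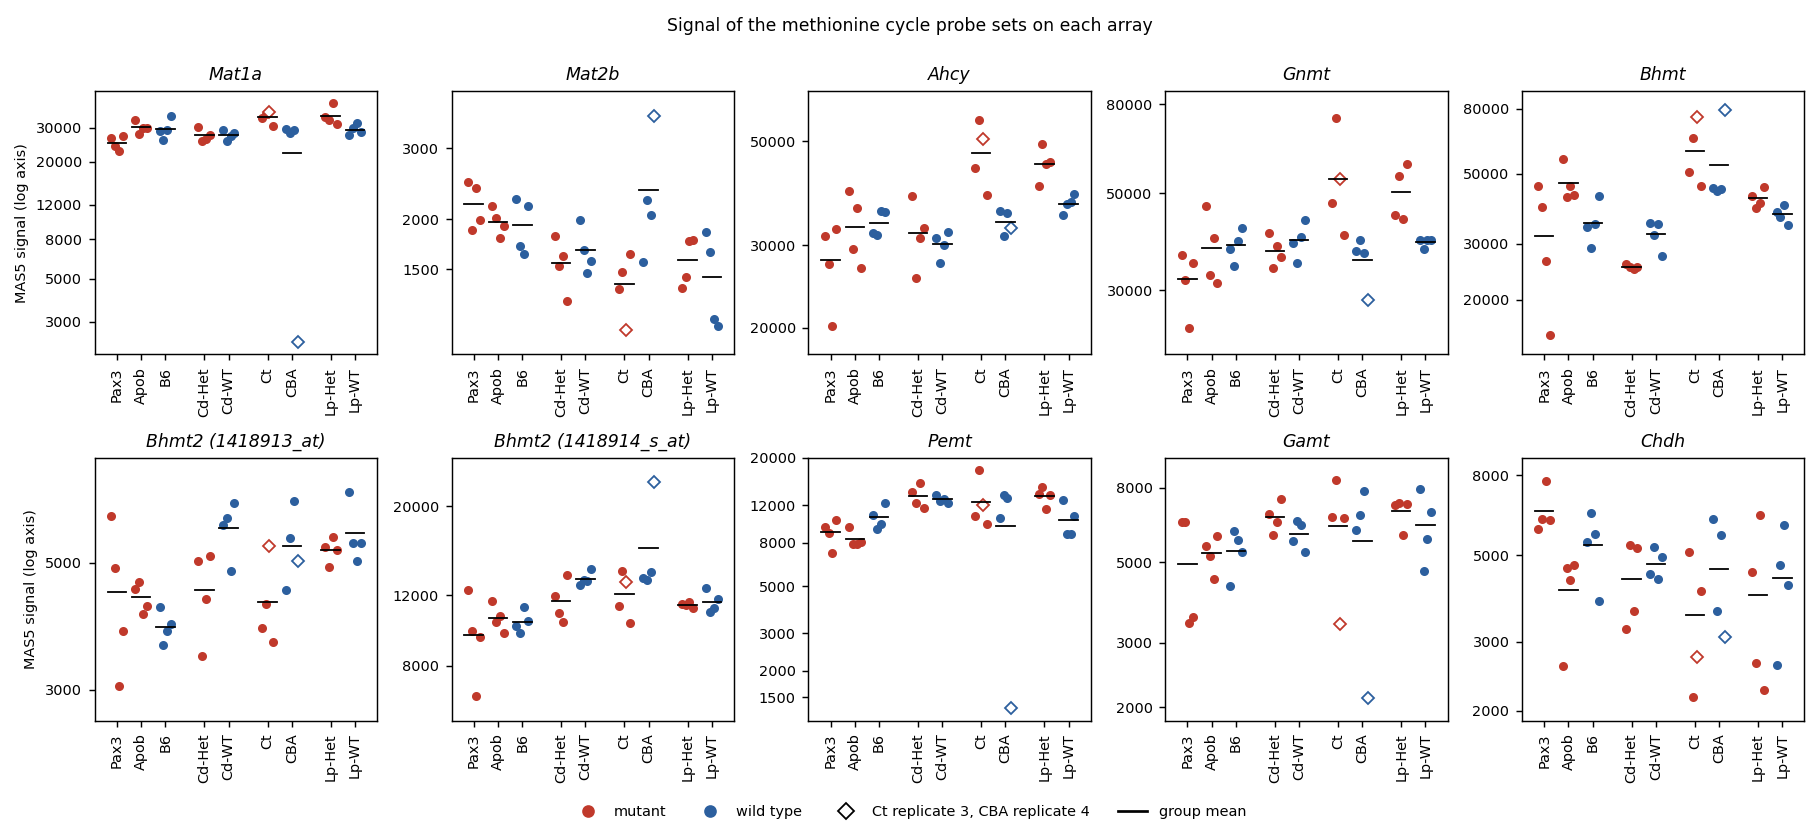
Signal of each of the 10 probe sets (log axis, MAS5 signal) on each array of the 9 groups, mutants in red left of their wild type controls in blue, with the arithmetic group mean as a bar. The diamonds are Ct replicate 3 and CBA replicate 4; the CBA diamond lies far below its group for Mat1a and Pemt and above it for Bhmt and the 1418914_s_at probe set of Bhmt2.

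Calls were few. A probe set was called at an adjusted p below 0.05 in limma, adjusted over all 27022 probe sets tested in that comparison. In Ct livers 1 of the 10 probe sets was higher (Gnmt) and 1 lower (Mat2b) than in CBA, where 4.52% of all probe sets were called, 2.08% higher and 2.44% lower. None of the 10 was called in Pax3 against B6 (background 0%), Cd-Het against Cd-WT (0.0037%), Apob against B6 (0.796%), or Lp-Het against Lp-WT (0.0222%). The 4 values of mutant and control overlapped for all 10 probe sets in Pax3 and Apob, although 5.21% of all probe sets did not overlap in Pax3 and 9.86% in Apob. At an unadjusted p below 0.05 the counts were 6 of 10 in Ct (21% of all probe sets), 1 in Cd-Het (2.42%), 1 in Lp-Het (6.4%), 0 in Pax3 (4.85%) and 0 in Apob (12.1%). Without the 2 arrays of doubtful RNA neither Ct call remained, and the background in Ct was 1.68%. Smaller groups stand apart more easily, and no share of probe sets without overlap was computed for that set. Statements on overlap without the 2 arrays are therefore descriptions.

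The arrays of doubtful RNA also changed the error of the other comparisons, because 1 estimate of the spread was shared by all groups. For Mat1a the standard error in the comparisons that do not involve Ct or CBA was 0.399 with all arrays and 0.104 without these 2, and for Pemt it was 0.370 with all and 0.152 without. The within-group SD of Mat1a on the log2 scale was 0.613 with all arrays and 0.116 without the 2. Ahcy and Gnmt were among the steadiest probe sets on the array, with within-group log2 SDs of 0.188 (the 2.06th percentile of the probe sets tested) and 0.213 (the 4.78th), against a median of 0.39. They were not alone: Bhmt2 had 0.207 on 1418914_s_at (the 4.01th) and 0.221 on 1418913_at (the 5.89th). Without the 2 arrays Mat1a was the steadiest of the 10. Chdh was the most variable of the 10 once the 2 arrays were left out, with an SD of 0.43.

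**Figure D2:**
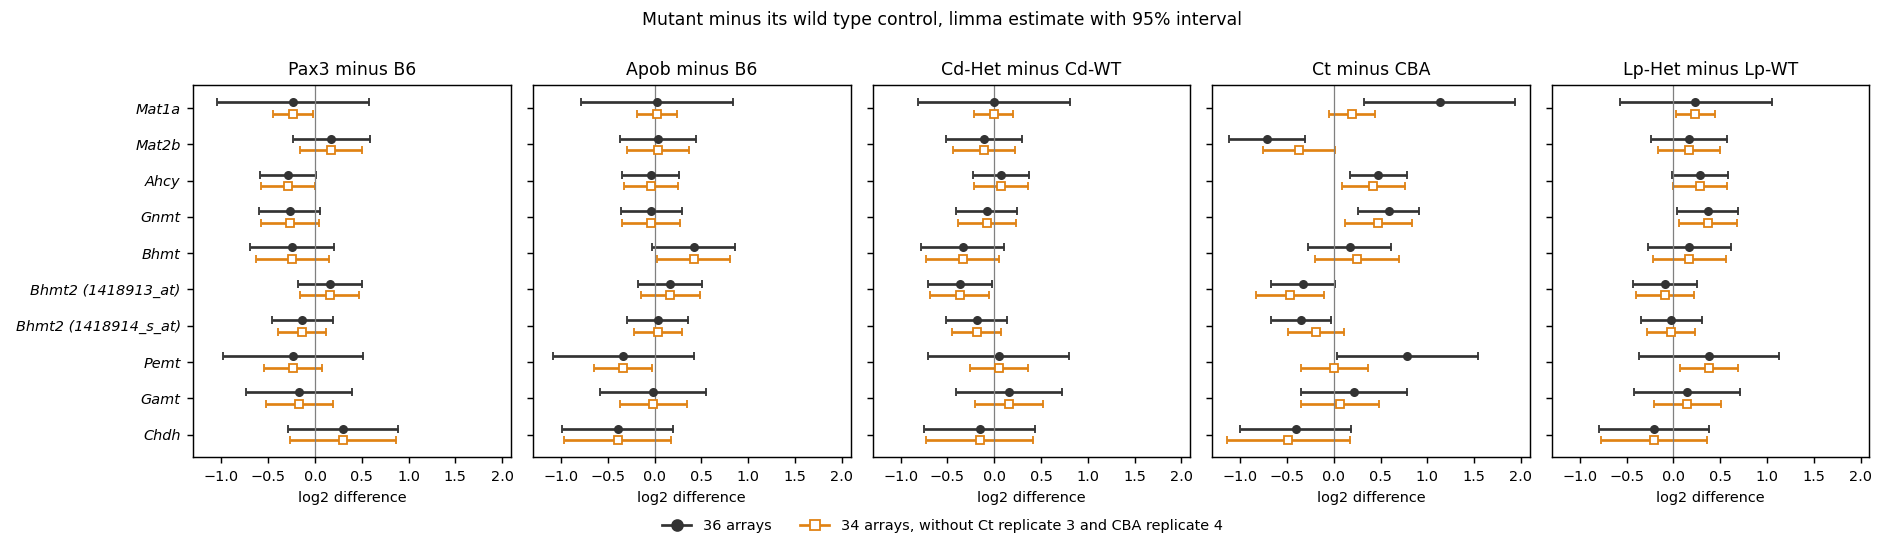
Log2 difference (mutant minus control, limma estimate with its 95% interval) of the 10 probe sets in each of the 5 mutant comparisons, with 36 arrays (filled circles) and with 34 arrays (open squares). In Ct minus CBA, Mat1a lies at 1.13 with all arrays and 0.193 without the 2, and Gnmt and Ahcy stay above 0 in both.

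Mat1a encodes the liver form of methionine adenosyltransferase. Its signal was 33647, 35239, 36345 and 30700 in Ct livers and 29687, 28186, 29102 and 2344 in CBA livers. All Ct arrays lay above all CBA arrays, and a single CBA array, the one with the GAPDH ratio of 52.5, was far below the rest. The difference was 1.13 ± 0.399 (adjusted p = 0.0926, limma) with all arrays and 0.193 ± 0.120 (adjusted p = 0.539) without the 2. The remaining Ct arrays were above the remaining CBA arrays, with no background share given. In Lp-Het livers Mat1a had 33992, 32999, 40313 and 31288, against 27386, 29763, 31639 and 28522 in Lp-WT. The highest Lp-WT array overlapped the lowest Lp-Het array, and the difference was 0.236 ± 0.399 (adjusted p = 0.971), or 0.236 ± 0.104 (adjusted p = 0.434) without the 2 arrays, and 0.0845 under quantile normalization. The summed hepatocyte markers in Lp-Het were also above those in Lp-WT, as given with Gnmt, and their part was not tested. In Pax3 livers the mean was 25160 ± 2139, against 29700 ± 3584 in B6 (SD, n = 4 each), a difference of -0.24 ± 0.399 (adjusted p = 0.999) that turned to 0.02 under quantile normalization. Apob and Cd-Het livers differed from their controls by 0.03 and -0.01, both with 95% intervals of about 0.8 to either side of 0 (-0.785 to 0.838 in Apob, -0.819 to 0.805 in Cd-Het).

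Mat2b encodes the regulatory subunit of the other methionine adenosyltransferase, whose catalytic subunit is the product of Mat2a. Its signal was 1344, 1481, 1063 and 1640 in Ct livers and 1563, 2236, 2046 and 3610 in CBA livers. The groups overlapped, and the lowest Ct array and the highest CBA array were the 2 of doubtful RNA. Mat2b was lower in Ct than in CBA by a log2 difference of -0.71 ± 0.200 (adjusted p = 0.0338, limma, n = 4 each), and the difference was -0.37 ± 0.188 (adjusted p = 0.413) without those 2 arrays. Leaving out Ct replicate 2 alone gave -0.75 (adjusted p = 0.0509), leaving out Ct replicate 3 alone -0.60 (adjusted p = 0.134), and leaving out CBA replicate 4 alone -0.49 (adjusted p = 0.158). In the other lines Mat2b differed from its control by 0.17 in Pax3, 0.03 in Apob, -0.11 in Cd-Het and 0.17 in Lp-Het, and none of these passed the test.

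Gnmt encodes glycine N-methyltransferase, an abundant liver enzyme that consumes S-adenosylmethionine and is inhibited by a form of folate. Its signal was 47443, 74482, 53851 and 40239 in Ct livers and 36937, 39114, 36526 and 28574 in CBA livers. Every Ct array was above every CBA array. Gnmt was higher in Ct by 0.59 ± 0.161 on the log2 scale, a 1.5-fold difference (adjusted p = 0.0303, limma, n = 4 each). Without the 2 arrays the difference was 0.476 ± 0.175 (adjusted p = 0.204, limma), and the groups did not overlap, with no background share given. The call was also lost without Ct replicate 2 (0.419, adjusted p = 0.139), without Ct replicate 3 (0.575, adjusted p = 0.0735) and without CBA replicate 4 (0.488, adjusted p = 0.109). Quantile normalization gave 0.329 (adjusted p = 0.114) and array weights gave 0.287 (adjusted p = 0.308).

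Ahcy encodes S-adenosylhomocysteine hydrolase, which removes the product of every methyl transfer. Its signal was 43937, 55668, 50602 and 38405 in Ct livers and 35418, 31327, 35111 and 32609 in CBA livers. All Ct arrays were again above all CBA arrays, and CBA replicate 4 lay within its group. The difference of 0.476 ± 0.148 missed the threshold (adjusted p = 0.0564), and without the 2 arrays it was 0.423 ± 0.164 (adjusted p = 0.239), and under quantile normalization 0.267. In Ct against CBA, 3 of the 10 probe sets (Mat1a, Ahcy and Gnmt) had groups that did not overlap, against 6.19% of all probe sets. Of the 5 hepatocyte markers 4 had a positive difference in Ct and none was called, with a median of 0.262, or 0.323 without the 2 arrays. Their summed signal was 197400 to 345900 in Ct (median 277200) and 201500 to 306400 in CBA (median 209500), and their part in the Mat1a, Gnmt and Ahcy values was not tested.

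The same pair stood apart in the loop tail line without passing the test. Gnmt had 44503, 54672, 43770 and 58338 in Lp-Het livers and 39172, 37249, 39176 and 39200 in Lp-WT livers. Ahcy had 40071, 49316, 44745 and 45174 in Lp-Het livers and 34870, 36771, 37087 and 38546 in Lp-WT livers. Every Lp-Het array was above every Lp-WT array for both genes, which makes 2 of 10 probe sets without overlap, against 5.10% of all probe sets. Gnmt differed by 0.368 ± 0.161 (unadjusted p = 0.029, adjusted p = 0.703) and Ahcy by 0.281 ± 0.148 (adjusted p = 0.788) in the limma fit. Under quantile normalization these differences were 0.145 for Gnmt and 0.0626 for Ahcy. Hepatocyte markers moved with them: the summed signal of 5 markers was 239200 to 302900 in Lp-Het and 202600 to 230100 in Lp-WT, with no marker called. The part of this shift in the Gnmt and Ahcy values was not tested.

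In Pax3 livers the means of both genes were below those of B6, without passing the test. Gnmt averaged 31780 ± 5115 in Pax3 and 38010 ± 3219 in B6 livers (SD, n = 4 each), a difference of -0.27 ± 0.161, and Ahcy averaged 27890 ± 5590 in Pax3 and 33540 ± 2124 in B6 livers, a difference of -0.29 ± 0.148. Both adjusted p values were 0.999, the groups overlapped, and quantile normalization gave 0.003 for Gnmt and -0.04 for Ahcy. Pax3 replicate 3 was the lowest of its group for 7 of the 10 probe sets, while it was the lowest for 25.3% of all probe sets. The same count of 7 held for B6 replicate 2 in the control group (18.7% of all probe sets) and for Ct replicate 4 (20.7%). The summed hepatocyte markers were 170300 to 203100 in Pax3 and 217700 to 248800 in B6 livers, without overlap and with no marker called. Alb, Ttr and Apoa1 were lower without overlap (-0.41, -0.44 and -0.38), while Tat (0.18) and Cps1 (-0.08) overlapped B6. The part of these markers was not tested. Hepatocyte number, RNA per hepatocyte and the scaling of the arrays cannot be told apart in such bulk samples, and their parts were not tested. Gnmt and Ahcy differed from control by -0.04 and -0.04 in Apob and by -0.08 and 0.07 in Cd-Het, all within overlapping groups.

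Within groups the extremes of the pair often fell on the same mice. The array with the lowest Gnmt was the array with the lowest Ahcy in 6 of 9 groups, and the highest array was shared in 5 of 9. Over the 45 pairs of the 10 probe sets the median was 3 of 9 for either, and the pair was not alone: Mat1a shared its lowest array with Ahcy and with Gnmt in 6 of 9 groups each, and Bhmt shared its highest with Mat1a and with Mat2b in 6 of 9 each. All probe sets of an array share its scaling, so this count is a description.

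For differences among the 5 mutant effects, none of the 10 probe sets passed the moderated F test, where 2.29% of all probe sets were called. The lowest adjusted p of limma's F test was that of Gnmt (0.110), followed by Ahcy (0.179), Mat2b (0.223) and Bhmt (0.227), and these 4 had an unadjusted p below 0.05, as did 16.3% of all probe sets. Without the 2 arrays the order was Bhmt (adjusted p = 0.0983), Gnmt (0.134), Mat1a (0.154) and Ahcy (0.180), with Mat2b at 0.462. None of the 10 then passed (background 3.77%), and 6 had an unadjusted p below 0.05 (background 19.1%).

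Bhmt encodes betaine-homocysteine methyltransferase, which remethylates homocysteine with betaine. Its mean was lowest and its spread smallest of the 9 groups in Cd-Het, with 25911, 25363, 25058 and 25281, against 34952, 32022, 34592 and 27384 in Cd-WT. All Cd-Het arrays were below all Cd-WT arrays, as for 3.02% of all probe sets in this comparison. The difference of -0.34 ± 0.218 did not pass the test (unadjusted p = 0.132, adjusted p = 1, limma). In Apob livers Bhmt had 55635, 42090, 45573 and 42909, against 33818, 29156, 34518 and 42372 in B6. Only the highest B6 array reached into the Apob range, and the difference was 0.417 ± 0.218 (adjusted p = 0.454). In Pax3 livers the 4 values spread from 15445 to 45554, wider than the B6 arrays, and the difference was -0.25 ± 0.218 (adjusted p = 0.999), or 0.03 under quantile normalization. The Apob and Pax3 comparisons share the B6 arrays. Apob minus Pax3, taken directly, was 0.663 ± 0.218 for Bhmt (unadjusted p = 0.00464, adjusted p = 0.112), where 1.81% of all probe sets were called and none of the 10 was.

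In Ct livers Bhmt had 50521, 64695, 75365 and 45529, against 45010, 43961, 44799 and 79167 in CBA. The highest CBA value came from CBA replicate 4, and without the 2 arrays every Ct array was above every CBA array, with no background share given. The difference was 0.169 ± 0.218 (adjusted p = 0.701) with all arrays and 0.249 ± 0.221 (adjusted p = 0.714) without them, and it turned to -0.06 under quantile normalization. Lp-Het livers averaged 41740 ± 2753 and Lp-WT livers 37150 ± 2271 (SD, n = 4 each), with overlap and a difference of 0.168 ± 0.218 that turned to -0.04 under quantile normalization.

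Bhmt2 encodes a paralog that uses S-methylmethionine as its methyl donor. Its probe sets 1418913_at and 1418914_s_at were opposite in sign in Pax3 (0.155 and -0.138) and alike in sign in the other mutant lines. The suffix of the second marks probes shared between transcripts in the manufacturer's naming, and whether it also reads Bhmt was not tested. In Cd-Het livers 1418913_at had 5047, 3438, 4327 and 5135, against 5823, 5984, 4842 and 6373 in Cd-WT. The groups overlapped through the lowest Cd-WT array. The difference was -0.37 ± 0.168 (unadjusted p = 0.0357, adjusted p = 1), and 1418914_s_at gave -0.19 ± 0.159. In Ct livers 1418913_at was -0.33 ± 0.168 from CBA (adjusted p = 0.255, limma), and without the 2 arrays -0.47 ± 0.178 (adjusted p = 0.221). The Ct arrays were then all below the CBA arrays, with no background share given. For 1418914_s_at the Ct difference was -0.35 ± 0.159 with all arrays and -0.19 ± 0.146 without the 2. Neither probe set was called in Pax3, Apob or Lp-Het livers, where differences ran from -0.14 to 0.17.

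Among the wild type stocks, B6 livers had the lowest Bhmt2 signals on 1418913_at. The values were 5823, 5984, 4842 and 6373 in Cd-WT, 6645, 5421, 5043 and 5422 in Lp-WT, and 4475, 5534, 6406 and 5034 in CBA livers. They were 4180, 3587, 3805 and 3913 in B6 livers. All 12 arrays of the other stocks, from 4475 to 6645, were above all B6 arrays. The difference from B6 was 0.564 ± 0.168 in Cd-WT (adjusted p = 0.0512), 0.533 ± 0.168 in Lp-WT (adjusted p = 0.0991) and 0.457 ± 0.168 in CBA (adjusted p = 0.101, limma). Without the 2 arrays Cd-WT (adjusted p = 0.0198, background 6.93%) and Lp-WT (adjusted p = 0.0392, background 4.66%) passed the test, and CBA did not (0.484, adjusted p = 0.0937, background 5%). The F test over the 4 wild type groups gave the same turn for this probe set, with an adjusted p of 0.0594 for all arrays and 0.0268 without the 2 (background 12.7%).

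**Figure D3:**
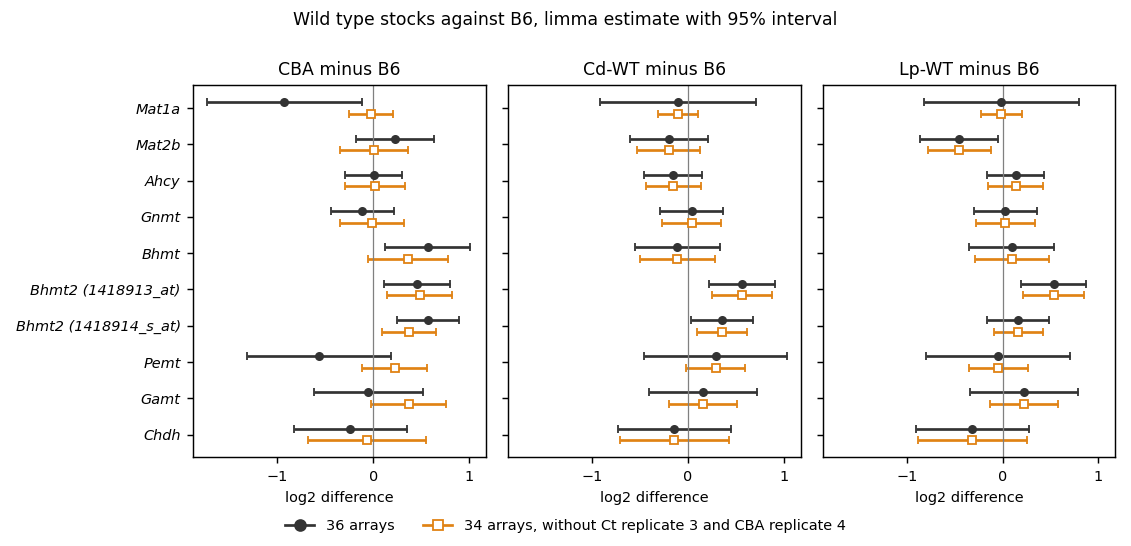
Log2 difference (stock minus B6, limma estimate with its 95% interval) of the 10 probe sets in CBA, Cd-WT and Lp-WT livers, with 36 arrays (filled circles) and 34 arrays (open squares). The Bhmt2 probe set 1418913_at lies between 0.457 and 0.564 in all 3 stocks.

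Among the 6 wild type comparisons 1 call was made with all arrays, Bhmt2 on 1418914_s_at in CBA against B6, where 6.29% of all probe sets were called and 2.92% were higher. Its signal was 13223, 13071, 13741 and 23023 in CBA and 10048, 9660, 11189 and 10337 in B6 livers. All CBA arrays were above all B6 arrays, and the highest was CBA replicate 4. The difference was 0.57 ± 0.159 (adjusted p = 0.0255, limma, n = 4 each) and 0.373 ± 0.137 (adjusted p = 0.122) without the 2 arrays. Leaving out CBA replicate 4 alone gave 0.373 (adjusted p = 0.141), and the call was also lost without B6 replicate 1 (0.558, adjusted p = 0.0648), B6 replicate 2 (0.540, adjusted p = 0.0747) and B6 replicate 4 (0.572, adjusted p = 0.0525). In Cd-WT the same probe set had 12724 to 13971, above all B6 arrays, a difference of 0.356 ± 0.159 (adjusted p = 0.267). In Lp-WT it overlapped B6, with a difference of 0.166 ± 0.159. Kupffer cell markers differed between the same stocks: 6 of 10 were lower in CBA than in B6, with and without the 2 arrays, and their summed signal was 7863 to 18370 in CBA and 24330 to 35190 in B6 livers. Their part in the Bhmt2 values was not tested.

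None of the 10 was called in Cd-WT against B6 (background 3.82%), Lp-WT against B6 (2.04%), Cd-WT against CBA (4.64%), Cd-WT against Lp-WT (2.44%) or CBA against Lp-WT (3.21%). At an unadjusted p below 0.05 the counts in that order were 2 of 10 (14.9% of all probe sets), 2 (12.8%), 4 (19.5%), 0 (13.2%) and 4 (17.3%), so 2 of 10 was near the background. The F test called 0 of 10 among the wild types with all arrays, where 9.65% of all probe sets were called, and 4 had an unadjusted p below 0.05, against 25% of all probe sets (both Bhmt2 probe sets, Mat2b and Bhmt). In CBA against B6, 3 of 10 did not overlap (background 11.4%). The counts were 2 in Cd-WT against B6 (16.6%), 1 in Lp-WT against B6 (11.5%), 1 in Cd-WT against CBA (11.2%), 2 in Cd-WT against Lp-WT (13.4%) and 2 in CBA against Lp-WT (7.65%).

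Bhmt itself was ordered otherwise among the stocks. It was higher on every CBA array (43961 to 79167) than on the B6 (29156 to 42372), Cd-WT (27384 to 34952) and Lp-WT (34468 to 39907) arrays. No difference passed the test. Against B6 it was 0.57 ± 0.218 (adjusted p = 0.116) and 0.363 ± 0.207 (adjusted p = 0.400) without the 2 arrays. Cd-WT against CBA gave -0.68 ± 0.218 (adjusted p = 0.0658) and -0.47 ± 0.207 (adjusted p = 0.225) without them. Mat2b was lowest in Lp-WT, at 1434 ± 385.3, against 1935 ± 303.3 in B6 (SD, n = 4 each), a difference of -0.45 ± 0.200 (adjusted p = 0.316), and CBA exceeded Lp-WT by 0.683 ± 0.200 (adjusted p = 0.0510), or 0.459 ± 0.175 (adjusted p = 0.205) without the 2 arrays. Gnmt hardly separated the stocks, with differences from B6 between -0.11 and 0.04 and an F test p of 0.767.

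Chdh encodes choline dehydrogenase, the first step from choline to betaine. Its values scattered within most groups. They were 5083, 2173, 2742 and 4058 in Ct and 6170, 3598, 5612 and 3088 in CBA livers, which overlapped (difference -0.41 ± 0.291, adjusted p = 0.442). In Apob livers they were 2603, 4642, 4316 and 4731, against 5390, 6402, 5671 and 3812 in B6, again overlapping (-0.40 ± 0.291, adjusted p = 0.638). Pax3 livers had the highest mean of the 9 groups, 6465 ± 850.4, against 5318 ± 1091 in B6 (SD, n = 4 each), a difference of 0.297 ± 0.291 (adjusted p = 0.999). Chdh differed by -0.16 in Cd-Het and by -0.21 in Lp-Het, within overlapping groups.

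Pemt encodes the enzyme that makes phosphatidylcholine by 3 methylations of phosphatidylethanolamine. In Ct livers it had 10658, 17455, 11972 and 9751, against 10448, 13339, 12966 and 1341 in CBA. Apart from CBA replicate 4 the groups covered the same range. The difference was 0.785 ± 0.370 (adjusted p = 0.216) with all arrays and 0.002 ± 0.176 (adjusted p = 0.998) without the 2. In Lp-Het livers Pemt had 13482, 14569, 11448 and 13379, against 12699, 8804, 8749 and 10710 in Lp-WT. One Lp-WT array reached into the Lp-Het range, and the difference was 0.38 ± 0.370 (adjusted p = 0.927), or 0.38 ± 0.152 (unadjusted p = 0.018, adjusted p = 0.383) without the 2 arrays. In Apob livers Pemt had 9428, 7875, 7839 and 8030, against 10730, 9217, 9742 and 12295 in B6. Only the highest Apob array passed the lowest B6 array. The difference was -0.33 ± 0.370 (adjusted p = 0.792) and, without the 2 arrays, -0.33 ± 0.152 (unadjusted p = 0.0353, adjusted p = 0.256).

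Gamt encodes guanidinoacetate methyltransferase, the last step of creatine synthesis. In Ct livers it had 6660, 8419, 3385 and 6618, against 6137, 6750, 7860 and 2112 in CBA. The lowest value of each group came from its array of doubtful RNA. The difference was 0.216 ± 0.279 (adjusted p = 0.702) with all arrays and 0.0626 ± 0.204 (adjusted p = 0.941) without the 2. In Pax3 livers 2 arrays had 6448 and 6432 and the other 2 had 3398 and 3537, against 4312 to 6084 in B6, a difference of -0.17 ± 0.279. Cd-Het, Lp-Het and Apob livers differed from their controls by 0.158, 0.147 and -0.02, within overlapping groups.

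The 2 arrays of doubtful RNA touched the 10 probe sets unevenly. On CBA replicate 4, relative to the mean of the other 3 CBA arrays, the log2 deviation was -3.62 for Mat1a, -3.16 for Pemt and -1.69 for Gamt, and 0.898 for Mat2b, 0.828 for Bhmt and 0.786 for Bhmt2 on 1418914_s_at. Only 0.914% of the probe sets tested deviated more than Mat1a on that array. Ahcy deviated by -0.06 and Bhmt2 on 1418913_at by -0.10. On Ct replicate 3 the largest deviation was that of Gamt, -1.08, and Gnmt and Pemt were within 0.05 of the other Ct arrays.

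**Figure D4:**
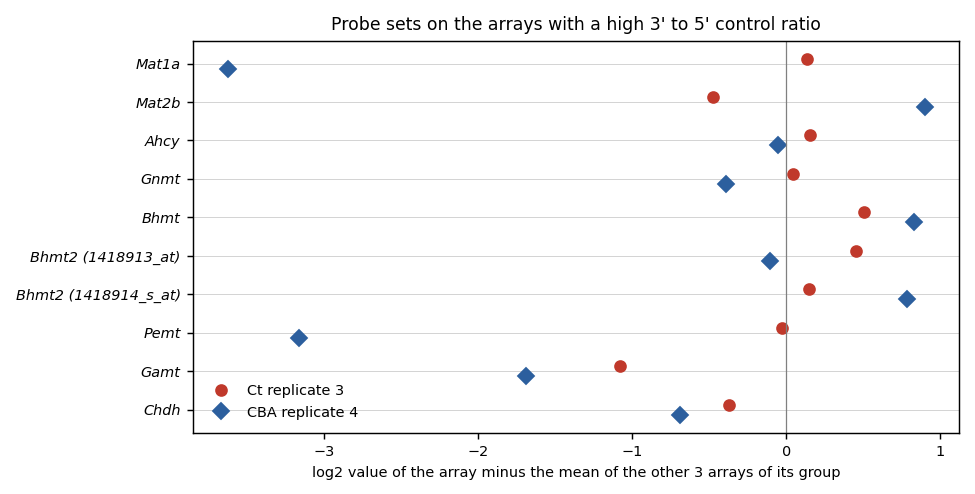
Log2 value of Ct replicate 3 (red circles) and CBA replicate 4 (blue diamonds) minus the mean of the other 3 arrays of the group, for the 10 probe sets. On CBA replicate 4 Mat1a (-3.62), Pemt (-3.16) and Gamt (-1.69) lie far to the left, while Ahcy lies at -0.06.

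Among 53 further genes of the surrounding pathways, taken as 1 probe set each, 47 were tested. The lists covered remethylation by folate, betaine handling, phosphatidylcholine synthesis, transsulfuration, adenosylhomocysteine disposal, other methyltransferases with creatine synthesis, and methylthioadenosine salvage. In Ct livers 2 were higher and 2 lower than in CBA, against 4.52% of all probe sets called, and 1 and 1 without the 2 arrays, against 1.68%. The median difference of the 47 was 0.126, against -0.02 over all probe sets tested. None was called in Pax3, Apob, Cd-Het or Lp-Het livers with all arrays, and 2 were higher in Apob without the 2 arrays, against 2.86% of all probe sets. In the wild type comparisons between 2 and 6 of the 47 were called. In CBA 4 were higher and 2 lower than in B6, where 6.29% of all probe sets were called. In Cd-WT the higher and lower counts were 3 and 3 against B6 (3.82%), 4 and 2 against CBA (4.64%), and 2 and 2 against Lp-WT (2.44%). They were 1 and 1 in Lp-WT against B6 (2.04%), and 2 and 3 in CBA against Lp-WT (3.21%).

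The genes called in Ct were Nnmt, Adi1, Tpmt and Mmachc. Nnmt, which methylates nicotinamide with S-adenosylmethionine, had 13473, 17472, 48011 and 13947 in Ct and 2774, 2705, 1813 and 1544 in CBA livers, without overlap. The difference was 3.20 ± 0.420 (adjusted p = 4.14e-06, limma, n = 4 each) and 2.63 ± 0.438 (adjusted p = 0.000285) without the 2 arrays. Tpmt, a thiopurine methyltransferase, had 1545, 1803, 1128 and 1309 in Ct and 4718, 4898, 5324 and 4726 in CBA livers. On this probe set the difference was -1.77 ± 0.202 (adjusted p = 2.67e-07), and -1.68 ± 0.222 (adjusted p = 6.67e-06) without the 2 arrays, while its other 3 probe sets differed by 0.02, -0.07 and -0.17.

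Mmachc, which processes cobalamin for methionine synthase, had 519, 493, 454 and 540 in Ct and 690, 1059, 1017 and 1219 in CBA livers, a difference of -0.93 ± 0.219 (adjusted p = 0.0103) that was -0.78 ± 0.245 (adjusted p = 0.109) without the 2 arrays. Adi1, an enzyme of methionine salvage, had 4076, 5039, 3436 and 4852 in Ct and 2381, 2868, 4090 and 338 in CBA livers, a difference of 1.27 ± 0.378 (adjusted p = 0.0462), or 0.608 ± 0.208 (adjusted p = 0.159) without the 2 arrays. Markers of Kupffer cells moved in the same comparison, with 6 of 10 higher in Ct than in CBA and 0 without the 2 arrays. Their summed signal was 14450 to 95920 in Ct and 7863 to 18370 in CBA livers. Of the pericentral hepatocyte markers 1 of 8 was higher in Ct, and of the stellate cell markers 1 of 6, and neither list had a call without the 2 arrays. No marker of the general hepatocyte list, periportal hepatocytes, cholangiocytes, sinusoidal endothelium, lymphocytes or erythroid cells was called in this comparison. The part of other cell types in the Ct values was not tested.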

How the data were processed

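Liver RNA of 36 mice was measured on 1 Affymetrix array each. Per the submitters' processing notes the authors computed linear signal intensities with MAS5, version not stated, and the deposited values of each array had a trimmed mean of 500, as computed here with 2% of probe sets left out at each end. MAS5 does not equalise the arrays' distributions. Of 45101 probe sets, 64 were array controls, 34945 had 1 symbol, 932 several, and 9160 were unnamed here; the Entrez IDs of 34754 matched the GRCm38.p6 RefSeq table.

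Values were analysed as log2(signal + 23.1), the offset being the 20th percentile of all signals, and 27022 probe sets with a mean log2 value above 6.41 (the 40th percentile) were tested. limma 3.58.1 (R 4.3.3) estimated the 9 group means from the 36 arrays together, with a variance trend and 27 residual degrees of freedom. Tests were two-sided, with Benjamini-Hochberg adjustment within each comparison. Differences are on the log2 scale, the first-named group minus the other, ± standard error. The number of arrays limits the precision. Promoter stretches were read from RefSeq. Plots used Python 3.11.15 and matplotlib 3.10.9.

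The members and lists were chosen with earlier results of these data known. Named genes were all member probe sets, the mutated genes, and up to 4 called genes of each pathway list in each mutant comparison. Marker lists covered hepatocytes (with pericentral and periportal ones), Kupffer cells, cholangiocytes, stellate cells, sinusoidal endothelium, lymphocytes and erythroid cells. No marker of the general hepatocyte list was called in a mutant comparison. On data simulated for Ct against CBA over 27022 probe sets, 46 of 100 changes of 2-fold and 94 of 100 of 4-fold were called, with 9 false calls. The simulated noise was normal and independent, with a single SD per probe set for every array. It held no array like those of doubtful RNA, so these rates do not describe the real Ct and CBA groups. Same-numbered mutant and control arrays correlated between -0.20 and 0.319 in their deviations from the group means, so the numbers were not taken as pairs. No 2 arrays held identical values.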

Additional observations from a re-analysis of the deposited data

Results flagged for a closer look

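Of 90 sets of 4 arrays (10 probe sets in 9 groups), 8 held 1 array far from the other 3, with the gap to the nearest array divided by the range of the group above the 95% critical value of Dixon's test. Chance alone gives about 1 in 20 such sets. CBA replicate 4 supplied 4 of them: the lowest Mat1a (0.980), the lowest Pemt (0.893), the highest Bhmt (0.960) and the highest Bhmt2 on 1418914_s_at (0.912). Apob replicate 1 was the highest of its group for Pemt (0.870) and the lowest for Chdh (0.846). Lp-Het replicate 3 was the lowest for Gamt (0.934), at 5941 against 7169 to 7266. Lp-WT replicate 2 was the lowest for Gnmt (0.986), although at 37249 it was close to the other 3 arrays, which lay within 39172 to 39200.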

How the results depend on the processing

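The count of calls in the mutant comparisons, 2 in the main fit, was 1 under quantile normalization, no filter or array weights. It was 0 under median centring, in fits to the compared arrays alone and without the 2 arrays of doubtful RNA. Under array weights neither Mat2b (adjusted p = 0.195) nor Gnmt (adjusted p = 0.308, limma) was called in Ct, so that 1 call was a different one. Leaving out each array in turn gave 0 to 3, with 0 without Ct replicate 2, Ct replicate 3 or CBA replicate 4. The count among wild type stocks, 1 in the main fit, was 2 with 1 probe set per gene or without the 2 arrays. It was 3 with the 60th percentile filter or the compared arrays alone, and 6 with array weights (leave-one-out 0 to 4). The main call itself, Bhmt2 on 1418914_s_at in CBA against B6, was lost without the 2 arrays (adjusted p = 0.122). It was also lost with the compared arrays alone (adjusted p = 0.278, limma), so the calls counted there were different ones. The F test among wild types gave 0 with all arrays, 1 without the 2 arrays, 2 with the 60th percentile filter and 3 with array weights (leave-one-out 0 to 3). The F test of mutant effects gave 1 with array weights and 0 to 0 when each array was left out. Reversed directions are named here only for differences with an unadjusted limma p below 0.05 with all arrays or without the 2. The direction reversed for Pax3 minus B6 Mat1a under quantile normalization (0.015). Ct minus CBA Pemt reversed under array weights (-0.165) and without CBA replicate 4 (-0.0048). Cd-WT minus CBA Mat1a reversed under array weights (-0.0085), without the 2 arrays (-0.0741) and without CBA replicate 4 (-0.0741). Over the fits that leave out 1 array, Ct minus CBA Pemt ranged from -0.0048 to 1.09 and Cd-WT minus CBA Mat1a from -0.0741 to 1.14. The cause of the changes with normalization was not tested. Of 110 differences, 39 changed sign under at least 1 alternative, and 2 of these had an unadjusted p below 0.05 with all arrays. The labels set each mutant beside a same-numbered control without saying what they share. With the replicate block the mutant comparisons gave 3 member calls, all in Ct, and 1658 calls in Ct over all probe sets, against 1221 without it. Only 4 of 20 same-number correlations were over 0.1, and 8 of 20 arrays correlated best with their own number. Scanner files were not used here, so saturation of the brightest probe sets was not examined.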

Other observations

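Some genes around the cycle differed among the wild type stocks. They were chosen after their values were seen. Mtap, which opens the methionine salvage pathway from methylthioadenosine, averaged 2432 ± 791.7 in CBA, 2838 ± 224.9 in Cd-WT and 2526 ± 477.5 in Lp-WT livers, against 1168 ± 249.7 in B6 (SD, n = 4 each). The differences from B6 were 1.02 (adjusted p = 0.00202), 1.28 (adjusted p = 0.000116) and 1.10 (adjusted p = 0.00193) in limma, and every array of the 3 stocks was above every B6 array. A second Mtap probe set, 1451346_at, was also called in all 3 stocks (1.01, 1.38 and 0.879), 1451345_at in Cd-WT alone (0.470 in CBA, 1.39 in Cd-WT and 0.727 in Lp-WT), and 1424426_at in none (0.01, 1.01 and 0.799). Csad, which makes hypotaurine from cysteine sulfinate, averaged 331 ± 77.08 in CBA, 1470 ± 952 in Cd-WT and 807 ± 464.2 in Lp-WT, against 4441 ± 2111 in B6. Its differences were -3.52 (adjusted p = 3.18e-06), -1.60 (adjusted p = 0.0492) and -2.42 (adjusted p = 0.00229), with the CBA and Lp-WT arrays below all B6 arrays and the Cd-WT arrays overlapping them.

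Tpmt on 1430889_a_at was higher than in B6 by 2.22 in CBA (adjusted p = 8.23e-10) and 2.36 in Cd-WT (adjusted p = 1.97e-10), and differed by -0.04 in Lp-WT (adjusted p = 0.973). In Cd-WT, 2 of its other 3 probe sets were called as well (1.19 and 1.01), and in CBA none of them was (0.099 to 0.473).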
